A study of Trametes sanguinea with 15 samples.

Results

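The response of Pycnoporus sanguineus CIRM-BRFM 1264 to purified hemicelluloses was read from 6 of the 15 libraries of the series, 3 from cultures on xylan-galactomannan and 3 from cultures on maltose. All libraries came from mycelium of this 1 strain, a white-rot basidiomycete, harvested on day 3 of growth in liquid medium, and what was sequenced was its polyadenylated RNA. The maltose cultures held 20 g/l of maltose. The xylan-galactomannan cultures held 15 g/l of the polymers beside 2.5 g/l of maltose, and the cultures on wheat straw and on Avicel (crystalline cellulose), used below for direct comparisons, held 15 g/l of those substrates with the same 2.5 g/l of maltose. The aspen cultures, whose levels are also given below, held 15 g/l of aspen with 2.5 g/l of maltose. The presence of the polymers and the lower maltose concentration therefore cannot be told apart in the contrast with maltose. The xylan-galactomannan libraries are named cultures 1, 2 and 3 by their replicate numbers. The sources used here state that the maltose, wheat straw, aspen and Avicel replicates were independent cultures but do not say so for xylan-galactomannan. The p-values therefore measure the spread between these libraries.

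Xylan is a chain of xylose and galactomannan a chain of mannose with galactose side groups, and together with related polymers they fill the space between cellulose fibres in plant walls. White-rot fungi secrete sets of glycoside hydrolases (GH families), carbohydrate esterases (CE) and auxiliary oxidases (AA) that cut these chains. Membrane transporters of the major facilitator superfamily then take up the released sugars, and aldo-keto reductases and polyol dehydrogenases bring pentoses into central metabolism. Genes for such enzymes are usually held low while an easy sugar such as maltose is plentiful.

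Levels are given as CPM, the counts of a gene relative to the total of its library, scaled by TMM (trimmed mean of M values, from edgeR). A fold change is the ratio of the group means fitted by edgeR's quasi-likelihood model, and a gene was called at a Benjamini-Hochberg adjusted p under 0.05 over all genes tested with an absolute log2 fold change above 1. Every adjusted p below comes from this edgeR model. Of 14165 gene models, 11724 had enough counts to be tested. The annotation came from the study's supplementary tables, which cover 98 of the tested genes. The study had chosen some of these genes for their behaviour on maltose, Avicel, wheat straw and aspen. Others came from clusters of genes with similar expression on these substrates, chosen because they held the most secreted proteins. Both routes used the same libraries of these substrates, so the direction of these genes against maltose, wheat straw or Avicel is not independent evidence. Xylanases of families GH10 and GH11 were not among them and were not analysed here.

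The libraries held 29367468 to 31784662 counts on maltose and 24209984 to 37462618 on xylan-galactomannan, with the lowest total in culture 1. Culture 2 stood apart from the other cultures on the same substrate. The root mean square difference in log2 CPM to the mean of the other libraries of the group was 0.91 for culture 2, against 0.71 for culture 1 and 0.53 for culture 3, and was 0.67, 0.43 and 0.78 for maltose 1, 2 and 3. Culture 2 was also the nearest of the cultures to wheat straw, at 1.07 from the wheat straw mean against 1.31 for culture 1 and 1.16 for culture 3. It was likewise the nearest to aspen, at 1.08 from the aspen mean against 1.37 for culture 1 and 1.23 for culture 3. Counts of called genes are therefore also given without culture 2. The log2 fold change of a gene showed a Spearman correlation of -0.19 with its length over the tested genes, and the part of length in the results was examined only by removing the trend, which left 630 genes higher and 330 lower.

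Set against maltose, the level of 688 genes was higher on xylan-galactomannan and that of 327 lower, which is 5.87% and 2.79% of the genes tested. With only the 6 libraries compared, in place of all 15 in the fit, 302 and 142 were called. The genes called higher had a median log2 fold change of 1.77 and those called lower of -1.55, beside 0.04 over all genes tested. Changes of more than 8-fold were found for 140 genes called higher and 34 called lower, and of more than 32-fold for 37 and 11. Genes whose 3 xylan-galactomannan libraries all lay above the 3 maltose libraries made up 15.6% of the genes tested, and those whose libraries all lay below made up 13.1%, so a lack of overlap by itself was common. Of the genes called, 639 of 688 and 307 of 327 showed no overlap between the groups.

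The genes called higher took 2.25, 2.22 and 2.40% of all counts in maltose 1, 2 and 3. In cultures 1, 2 and 3 they took 7.32, 10.5 and 9.05%. The genes called lower went the other way, from 8.36, 6.94 and 7.92% on maltose to 2.03, 2.08 and 1.89% on xylan-galactomannan. Among the cultures the share of the genes called higher was lowest in culture 1 and highest in culture 2. The genes were called with all 3 cultures, so these shares do not compare how the cultures responded.

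Without culture 2 the fit called 696 genes higher and 507 lower, of which 541 and 284 were also called with all cultures. The number of genes higher was thus nearly the same with and without culture 2, whereas that of the genes lower depended on it.

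**Figure D1:**
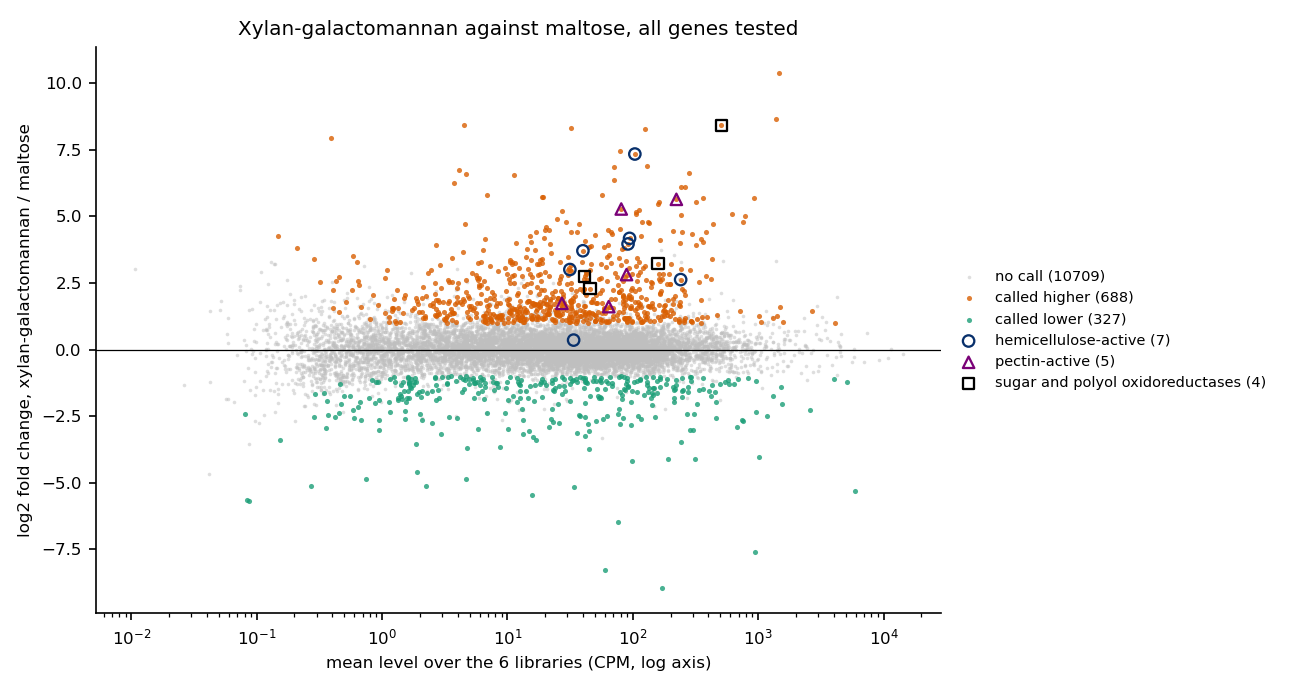
Log2 fold change of xylan-galactomannan against maltose (vertical axis) against the mean level over the 6 libraries in CPM (horizontal log axis) for the 11724 genes tested. The 688 genes called higher reach further from 0 than the 327 called lower, and the open symbols mark the 7 hemicellulose-active, 5 pectin-active and 4 sugar and polyol oxidoreductase genes, all of them called higher except 1 hemicellulose-active gene.

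Of the 7 genes for enzymes active on hemicellulose in the annotation 6 were called higher and none lower, where 5.87% of all genes tested and 53 of the 98 annotated genes were called higher. The median log2 fold change of the 7 was 3.71. Their summed level was 155, 147 and 91.4 CPM in maltose 1, 2 and 3 and 510, 1826 and 1083 CPM in cultures 1, 2 and 3. All 7 genes were lowest in culture 1 and highest in culture 2. Without culture 2 the same number of genes, 6, was called higher, with a median log2 fold change of 3.19.

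The largest rise in this group was that of a glucuronoyl esterase of family CE15 (gene 1679979), an enzyme type that cuts ester bonds between xylan side chains and lignin. Its level was 0.955, 1.49 and 1.37 CPM in maltose 1, 2 and 3 and 56.5, 391 and 172 CPM in cultures 1, 2 and 3. The gene was close to silent on maltose and every culture on the polymers lay far above. Its log2 fold change was 7.34 ± 0.88 (SE, n = 3 per group, edgeR adjusted p = 0.000173), and the 2.79 log2 units between culture 1 and culture 2 were among the 3 widest ranges of all annotated genes called in the listed groups. Without culture 2 the log2 fold change was 6.45, still called.

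An acetylesterase of family CE16 (1592100), a type of enzyme that takes acetyl groups off xylan and related chains, stood at 14.7, 11 and 3.79 CPM on maltose and at 116, 212 and 208 CPM in cultures 1, 2 and 3. Cultures 2 and 3 were nearly level and culture 1 lower, so this gene was graded less steeply than CE15. The log2 fold change was 4.18 ± 0.54 (SE, n = 3 per group, edgeR adjusted p = 0.000289).

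For the mannan part of the substrate, the annotation holds a family GH5_7 enzyme with a cellulose-binding module (CBM1), of a subfamily of endo-mannanases that cut the mannan backbone, and a GH2 enzyme with the EC number of a beta-mannosidase, which trims mannose from chain ends. The GH5_7 gene (1672345) rose from 13.3, 13 and 6.70 CPM on maltose to 90.2, 259 and 168 CPM in cultures 1, 2 and 3, a log2 fold change of 3.97 ± 0.48 (SE, n = 3 per group, edgeR adjusted p = 0.000171). The GH2 gene (1664834) was already well expressed on maltose, at 81.7, 73.9 and 45.4 CPM, and stood at 176, 722 and 347 CPM on xylan-galactomannan. Its log2 fold change was 2.63 ± 0.41 (SE, n = 3 per group, edgeR adjusted p = 0.000997). It was 1.92 without culture 2, still called, and with only the 6 libraries compared the call was lost (adjusted p = 0.0516). Both genes had the order culture 1, culture 3, culture 2 from low to high and no overlap with maltose.

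A pair of GH43 genes, from a family that holds arabinofuranosidases and xylosidases, were both called higher, from overlapping levels on maltose. Gene 1561085 was at 5.32, 4.74 and 6.98 CPM on maltose and at 19.2, 117 and 87.1 CPM in cultures 1, 2 and 3, with a log2 fold change of 3.71 ± 0.49 (SE, n = 3 per group, edgeR adjusted p = 0.000355). Gene 1695354 was at 11.2, 6.60 and 3.03 CPM and at 30.7, 70.6 and 66.7 CPM, with a log2 fold change of 3.01 ± 0.65 (SE, n = 3 per group, edgeR adjusted p = 0.0077). In both, cultures 2 and 3 were close to each other and culture 1 clearly lower. A GH95 gene (1567160), of a fucosidase family, was the 1 member not called, at 28.3, 36.4 and 24.1 CPM on maltose and 22.1, 56.6 and 34.9 CPM on xylan-galactomannan (log2 fold change 0.36 ± 0.31, edgeR adjusted p = 0.464). Its direction turned without culture 2, where the log2 fold change was -0.10.

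Pectin is not named among the added substrates, and all 5 genes of the annotation grouped here as pectin-active were called higher. Their median log2 fold change was 2.82, and their summed level went from 95.1, 71.5 and 70.7 CPM in maltose 1, 2 and 3 to 373, 1452 and 841 CPM in cultures 1, 2 and 3. All 5 were highest in culture 2, and 4 were lowest in culture 1. The call of all 5 held without culture 2.

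A polygalacturonase of family GH28 (1577230), which cuts the pectin backbone, rose from 9.43, 7.52 and 9.28 CPM on maltose to 158, 727 and 424 CPM in cultures 1, 2 and 3. Its log2 fold change was 5.64 ± 0.46 (SE, n = 3 per group, edgeR adjusted p = 7.54e-06). The maltose libraries lay close together and the cultures far apart, and without culture 2 the log2 fold change was 5.02, still called. A pectin methylesterase of family CE8 (1577721), which removes methyl groups from the same backbone, was at 5.32, 4.64 and 2.18 CPM on maltose and at 46.9, 319 and 107 CPM in the cultures (log2 fold change 5.28 ± 0.62, edgeR adjusted p = 0.000144). In this gene culture 3 lay nearer to culture 1 than to culture 2, and without culture 2 the log2 fold change was 4.20, still called.

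The other GH28 gene (1738933) was at 31.0, 22.5 and 12.9 CPM on maltose and at 75.5, 205 and 187 CPM in cultures 1, 2 and 3 (log2 fold change 2.82 ± 0.45, edgeR adjusted p = 0.00117). Genes of families GH79 (1561925) and GH88 (1428239), which act on glucuronic acid residues, rose less. The study's text names GH88 among pectin-active enzymes but not GH79, so the place of the GH79 gene in this list was a choice of grouping. The GH79 gene went from 13.2, 9.48 and 15.0 CPM to 17, 59.4 and 49.0 CPM, so culture 1 was only just above the highest maltose library (log2 fold change 1.74 ± 0.34, edgeR adjusted p = 0.00453), and the call was lost with only the 6 libraries compared (adjusted p = 0.0932). The GH88 gene went from 36.1, 27.4 and 31.4 CPM to 76.3, 141 and 73.5 CPM, with cultures 1 and 3 level (log2 fold change 1.61 ± 0.30, edgeR adjusted p = 0.00303).

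Family GH3 holds beta-glucosidases and beta-xylosidases, which release single sugars from short chains, and both annotated members were called higher. Gene 1577052 stood at 9.81, 8.19 and 4.97 CPM on maltose and at 29.2, 209 and 93.4 CPM in cultures 1, 2 and 3 (log2 fold change 3.85 ± 0.56, edgeR adjusted p = 0.000677). Gene 1537322 stood at 9.81, 17.2 and 11.6 CPM and at 49.6, 213 and 67.1 CPM (log2 fold change 3.09 ± 0.49, edgeR adjusted p = 0.00116). Culture 2 was far above the other cultures in both, and without it the log2 fold changes were 2.96 and 2.13, both still called.

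**Figure D2:**
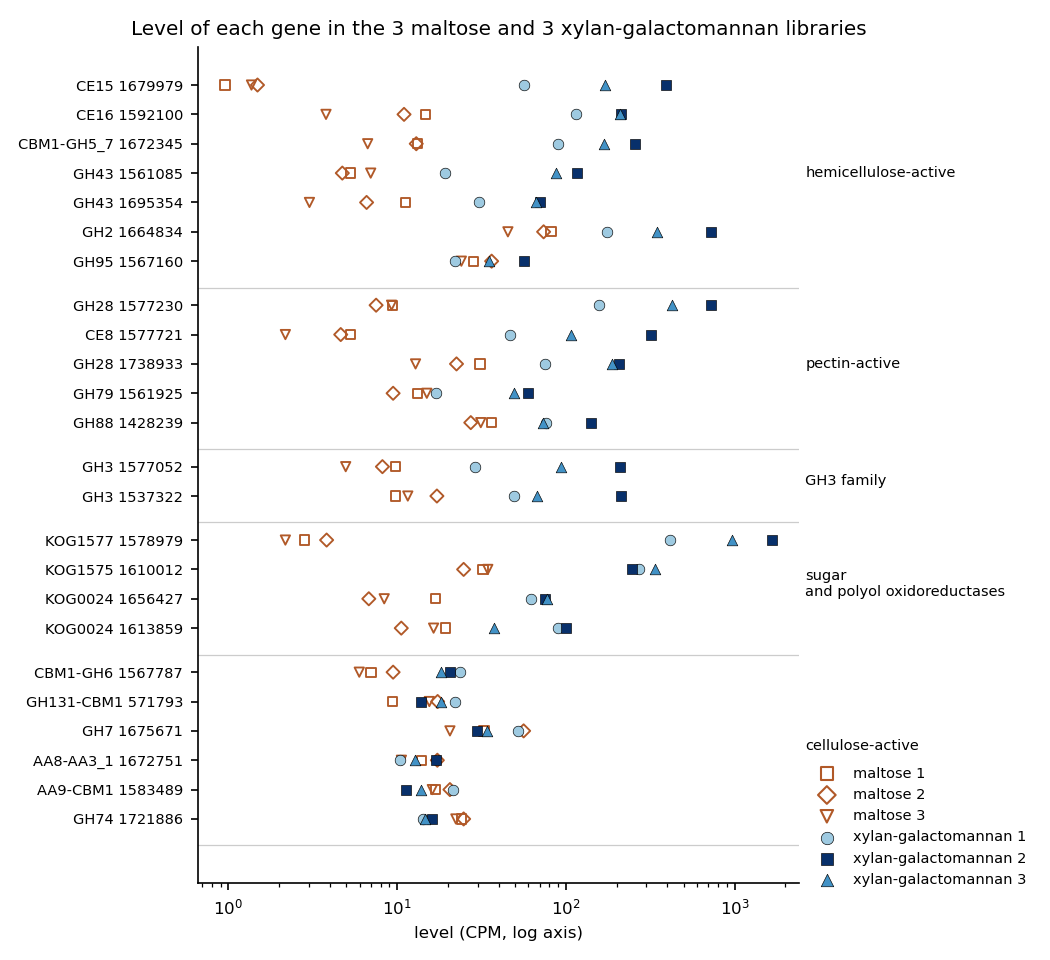
Level of each gene in CPM (horizontal log axis) in the 3 maltose libraries (open brown symbols) and the 3 xylan-galactomannan cultures (filled blue symbols), by gene group. In the hemicellulose-active and GH3 genes culture 2 lies at the right and culture 1 at the left of the blue symbols, while the cellulose-active genes of both groups lie between 5.97 and 56.3 CPM.

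Genes of sugar and polyol metabolism held the largest rise of any annotated gene. All 4 sugar and polyol oxidoreductases were called higher, with a median log2 fold change of 2.99. An aldo-keto reductase (1578979, KOG1577), of the family to which fungal xylose reductases belong, was at 2.83, 3.83 and 2.18 CPM on maltose and at 413, 1664 and 962 CPM in cultures 1, 2 and 3. The gene went from barely transcribed to abundant, in the order culture 1, culture 3, culture 2, and its log2 fold change was 8.42 ± 0.64 (SE, n = 3 per group, edgeR adjusted p = 5.33e-06). Without culture 2 it was 7.82, still called.

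A further aldo-keto reductase (1610012, KOG1575) rose without such a grade. It was at 32.3, 24.8 and 34.5 CPM on maltose and at 273, 248 and 339 CPM in cultures 1, 2 and 3 (log2 fold change 3.23 ± 0.38, edgeR adjusted p = 0.000139), and here culture 2 was the lowest of the cultures. A gene of the sorbitol dehydrogenase group KOG0024 (1656427) was at 16.9, 6.81 and 8.40 CPM and at 62.2, 75.7 and 77.7 CPM (log2 fold change 2.75 ± 0.40, edgeR adjusted p = 0.000662), and its range of 0.32 log2 units between cultures was among the 3 narrowest of the annotated genes called in the listed groups. The other KOG0024 gene (1613859) was at 19.3, 10.6 and 16.5 CPM and at 90.03, 99.9 and 37.6 CPM (log2 fold change 2.29 ± 0.65, edgeR adjusted p = 0.0289). Leaving out any 1 of maltose 1, 2 or 3 or culture 1 or 2 ended this call, with adjusted p from 0.0598 to 0.108. A gene outside these groups with the EC number of a D-arabinitol dehydrogenase (1611298, KOG0725), picked after its values were seen, went from 3.76, 7.14 and 8.36 CPM to 43.4, 88.4 and 41.0 CPM (log2 fold change 3.17 ± 0.41, edgeR adjusted p = 0.00029).

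Of the 9 members of the major facilitator superfamily in the annotation 7 were called higher and none lower (6 higher without culture 2), with a median log2 fold change of 2.75. Their summed level was 155, 123 and 150 CPM in maltose 1, 2 and 3 and 512, 1943 and 790 CPM in cultures 1, 2 and 3. The 4 with the largest rises all belong to KOG0254, a group of sugar transporter-like proteins.

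Transporter 1593966 was at 1.62, 1.83 and 2.58 CPM on maltose and at 48.1, 182 and 106 CPM in cultures 1, 2 and 3 (log2 fold change 5.80 ± 0.50, edgeR adjusted p = 1.59e-05). Transporter 1673228 was the most abundant of the KOG0254 genes, at 17.8, 12.2 and 13.2 CPM on maltose and 154, 986 and 282 CPM in the cultures (log2 fold change 5.04 ± 0.65, edgeR adjusted p = 0.000289). Culture 2 alone held most of the summed level of this gene. Transporter 1672735 had the widest range between cultures of all annotated genes called in the listed groups, 2.89 log2 units, from 36.6 CPM in culture 1 to 271 CPM in culture 2 with 80.9 CPM in culture 3, above 3.66, 6.23 and 9.20 CPM on maltose (log2 fold change 4.35 ± 0.65, edgeR adjusted p = 0.000727). Transporter 1592026 was flat on maltose, at 10.9, 10.7 and 10.8 CPM, and at 30.7, 189 and 81.3 CPM in the cultures (log2 fold change 3.21 ± 0.48, edgeR adjusted p = 0.000756). All 4 had the order culture 1, culture 3, culture 2. Without culture 2 the log2 fold changes of 1673228, 1672735 and 1592026 were 3.88, 3.17 and 2.33, all still called.

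Transporter 1585875 (KOG2533) behaved otherwise. It was at 98.2, 112 and 106 CPM in cultures 1, 2 and 3, a range of 0.18 log2 units, and at 21.4, 19.0 and 44.4 CPM on maltose (log2 fold change 1.90 ± 0.34, edgeR adjusted p = 0.00237). In this gene the cultures lay close together and well above all maltose libraries.

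The cellulose-active genes differed from all these groups. Of the 6 annotated, 1 was called higher and none lower, and the median log2 fold change was 0.01. The called gene, a CBM1-GH6 cellobiohydrolase (1567787) that works along cellulose chains, went from 7.01, 9.48 and 5.97 CPM on maltose to 23.7, 20.7 and 18.2 CPM (log2 fold change 1.48 ± 0.36, edgeR adjusted p = 0.0148), and the call was lost without maltose 1 (adjusted p = 0.052). The GH7 cellobiohydrolase (1675671) was at 32.7, 56.3 and 20.6 CPM on maltose and 52.0, 29.8 and 34 CPM on xylan-galactomannan, with overlapping groups (log2 fold change 0.08 ± 0.67, adjusted p = 0.953). A CBM1-bearing AA9 lytic polysaccharide monooxygenase (1583489), an AA8-AA3_1 cellobiose dehydrogenase (1672751) and a GH131 gene with CBM1 (571793) had log2 fold changes of -0.20 ± 0.56, -0.06 ± 0.48 and 0.35 ± 0.31 and overlapping groups. A GH74 gene (1721886), of a xyloglucanase family, was lower in every culture, at 14.3, 16.1 and 14.7 CPM against 24.1, 24.8 and 22.3 CPM, but missed the test (log2 fold change -0.66 ± 0.25, edgeR adjusted p = 0.0844). Its place in this list was a choice of grouping, and among the hemicellulose-active genes it would be a further member not called. The single laccase (AA1_1, 1560767) was at 47.1, 18.4 and 10.8 CPM on maltose and 18.6, 113 and 38.0 CPM in the cultures, with overlapping groups and no call (adjusted p = 0.31). Its log2 fold change was 1.15, and 1.95 without maltose 1 and 0.11 without culture 2.

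Enzymes of fungal wall and glycoprotein glycans moved in both directions, with 4 of 11 called higher, 1 lower and a median log2 fold change of 0.16. Over the annotation 53 of 98 genes were called higher, and the counts of this group and of the next ones stand beside that share. The largest rise was in a GH92 mannosidase gene (1609029), at 28.6, 26.1 and 10.2 CPM on maltose and 149, 936 and 319 CPM in cultures 1, 2 and 3 (log2 fold change 4.43 ± 0.69, edgeR adjusted p = 0.00103), and without culture 2 its log2 fold change was 3.39, still called. Genes of families GH76 (1575750) and GH125 (1588377), both of which act on mannose-rich chains of fungi, rose with log2 fold changes of 2.67 ± 0.41 and 1.97 ± 0.30 (edgeR adjusted p = 0.000982 and 0.000789). The GH76 gene was at 78.1, 98.8 and 104 CPM in the cultures and thus nearly even, and the GH125 gene was at 209, 234 and 114 CPM with culture 3 the lowest. A GH18 gene (1601452), of a chitinase family, was highest in culture 3, at 35.3, 17.9 and 78.3 CPM against 6.05, 7.04 and 15.7 CPM on maltose (log2 fold change 2.2 ± 0.57, edgeR adjusted p = 0.0189), and the call was lost without culture 3 (log2 fold change 1.48, adjusted p = 0.0867), maltose 1 (0.0724) or maltose 2 (0.0797) and with only the 6 libraries compared (0.107).

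The 1 annotated gene called lower was a GH47 alpha-mannosidase (1609201), of a family that trims N-glycans in the secretory pathway. It stood at 138, 190 and 50.7 CPM on maltose and at 40.0, 40.2 and 36.5 CPM in cultures 1, 2 and 3, the narrowest range between cultures of the annotated genes called in the listed groups (0.14 log2 units). The maltose libraries were much less even, and the gene fell by 1.70 on the log2 scale (SE 0.42, edgeR adjusted p = 0.015), a call that was lost without maltose 2 (adjusted p = 0.0726) or culture 3 (0.0513) and with only the 6 libraries compared (0.0828).

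Of 5 proteases 3 were called higher and none lower, and with only the 6 libraries compared 1 was called higher. The 3 genes called were lowest in culture 2, while the others, 1643269 and 1646990, were highest in culture 2 and not called (edgeR adjusted p = 0.0847 and 0.385). An aspartic protease (1682142, KOG1339) was at 21.4, 26.3 and 80.9 CPM on maltose and at 249, 110 and 561 CPM in cultures 1, 2 and 3 (log2 fold change 2.84 ± 0.59, edgeR adjusted p = 0.00639). Its log2 fold change was 3.69 without maltose 3 and 2.07 without culture 3, both still called, and the call was lost with only the 6 libraries compared (adjusted p = 0.0931). A serine carboxypeptidase (1608570), which removes amino acids from the end of proteins, was at 55.9, 47.0 and 79.0 CPM and at 343, 119 and 339 CPM (log2 fold change 2.14 ± 0.40, edgeR adjusted p = 0.00293), and this call too was lost with only the 6 libraries compared (0.0515). In both, culture 2 was the nearest to maltose, while in the hemicellulose-active genes it was the farthest. The other KOG1339 gene (174056) was at 56.3, 34.6 and 68.0 CPM in the cultures and 15.3, 9.04 and 17 CPM on maltose (log2 fold change 1.94 ± 0.37, edgeR adjusted p = 0.00352).

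Of the lipases and carboxylesterases 2 of 5 were called higher. A carboxylesterase of KOG4389 (1586203) went from 7.71, 7.21 and 6.10 CPM to 111, 534 and 285 CPM in cultures 1, 2 and 3 (log2 fold change 5.47 ± 0.54, edgeR adjusted p = 4.69e-05), with the same order of cultures as the hemicellulose-active genes and a log2 fold change of 4.78 without culture 2, still called. A predicted lipase of KOG4569 (1581796) went from 2.55, 2.84 and 1.61 CPM to 16.1, 33.9 and 28.0 CPM (log2 fold change 3.47 ± 0.45, edgeR adjusted p = 0.00032). Cytochromes P450, mono-oxygenases of many substrates, were called higher for 3 of 6 genes with all cultures and for 1 of 6 without culture 2. Over the 98 annotated genes these counts were 53 and 48. All 6 were highest in culture 2, as were 64 of the 98 annotated genes and 41.6% of all genes tested. The largest rise of a P450 gene was that of a KOG0156 gene (1742239), from 40.6, 43.5 and 27.3 CPM to 143, 160 and 88.4 CPM (log2 fold change 1.81 ± 0.39, edgeR adjusted p = 0.00767). The KOG0157 genes called higher rose less, with log2 fold changes of 1.70 ± 0.44 (1672037, adjusted p = 0.0198) and 1.09 ± 0.16 (1680152, adjusted p = 0.000662), and both calls ended without culture 2, where the values were 0.97 and 0.82. The call of 1672037 also ended without maltose 2 (adjusted p = 0.0623) or maltose 3 (0.0589) and with only the 6 libraries compared (0.101).

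Over the whole annotation 53 of 98 genes were called higher and 1 lower, with 48 and 2 without culture 2. Among the genes in no listed group, and chosen after their values were seen, the widest spread was that of a gene annotated to KOG4157 (1583293), at 0.223, 0.203 and 0.161 CPM on maltose and 16.1, 154 and 23.5 CPM in cultures 1, 2 and 3 (log2 fold change 8.33 ± 1.31, edgeR adjusted p = 0.00107). Its cultures spanned 3.25 log2 units, and without culture 2 its log2 fold change was 6.58, still called. An aquaporin (1618911, KOG0224) was even across the cultures, at 172, 174 and 138 CPM against 9.84, 14 and 25 CPM on maltose (log2 fold change 3.31 ± 0.51, edgeR adjusted p = 0.000962).

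**Figure D3:**
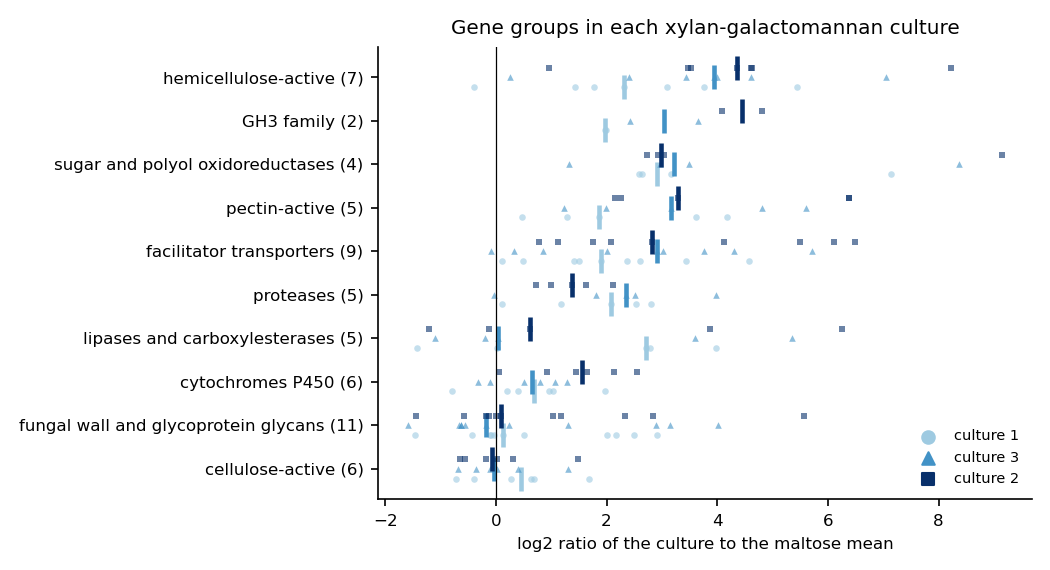
Log2 ratio of each culture to the mean of the 3 maltose libraries (horizontal axis) for every gene of 10 annotated groups, with the number of genes in parentheses, small symbols for genes and vertical ticks for the group median in a culture. The median of the hemicellulose-active genes goes from 2.32 in culture 1 to 3.95 in culture 3 and 4.37 in culture 2, and that of the proteases is lowest in culture 2, at 1.38.

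Large changes were also found among genes outside the 98 annotated ones, for which the sources used here give no function. The largest rises and falls were picked among those called without overlap and above a minimum mean level. Larger changes in genes below that level are therefore not shown. Gene 1629542 was at 2.36, 3.66 and 0.484 CPM on maltose and at 2690, 3423 and 2692 CPM in cultures 1, 2 and 3, with a log2 fold change of 10.39 ± 0.98 (SE, n = 3 per group, edgeR adjusted p = 3.54e-05), which was 10.99 without maltose 2. Gene 1612544 was at 7.04, 9.85 and 3.47 CPM and at 3004, 2385 and 2939 CPM (log2 fold change 8.67 ± 0.55, edgeR adjusted p = 1.28e-06). Both were among the most abundant transcripts of these cultures and nearly even between them. In the 12 libraries of the other carbon sources, aspen included, the highest level was 12.1 CPM for 1629542 and 15.0 CPM for 1612544.

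Of the falls, gene 1614574 went from 690, 179 and 162 CPM on maltose to 0.884, 0.895 and 0.364 CPM in cultures 1, 2 and 3 (log2 fold change -8.93 ± 0.77, edgeR adjusted p = 1.59e-05), and the log2 fold change was -7.92 without maltose 1. It was similarly low on wheat straw (0.90 ± 0.23 CPM, SD, n = 3), Avicel (1.43 ± 0.98 CPM) and aspen (1.97 ± 0.29 CPM), with no call against wheat straw or Avicel (edgeR adjusted p = 0.695 and 0.266), and so was high only on maltose among the 5 carbon sources. Gene 1545845 was at 199, 157 and 5.37 CPM on maltose and at 0, 0.831 and 0.242 CPM in the cultures, where a count of 0 in culture 1 allows up to 0.147 CPM (3 counts, counting error only). Even numbers made up 66.5 to 76.5% of the values between 1 and 20 in each library. Where both reads of a pair were counted, 3 pairs are 6 counts and the limit is 0.295 CPM. The direction was the same in all libraries, the edgeR adjusted p was 0.000893, and the log2 fold change was -8.27, or -9.70 without culture 2 and -7.65 with the replicate block. The size of this fall is uncertain since the levels lie near that floor and maltose 3 was far below the other maltose libraries.

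How strongly each culture responded was measured on genes chosen without it. For each culture in turn the model was fitted to the other 14 libraries, and the log2 ratio of the culture to the mean of the maltose libraries was taken for the genes called there. This is a description of 1 library at a time and carries no test. Culture 1 reached a median of 1.47 over 669 genes called higher, where cultures 2 and 3 had 1.96 and 1.71 in the same genes. Culture 2 reached 1.41 over 696 genes, with 1.79 in culture 1 and 1.89 in culture 3. Culture 3 reached 1.65 over 652 genes, between the 1.58 of culture 1 and the 1.99 of culture 2. Culture 3 was thus the 1 culture whose left-out median lay above that of a culture that had been used to choose the genes.

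The genes had been called higher against the same maltose libraries that form the ratio, so most were bound to lie above the maltose mean. Over all genes tested 53.9, 49.6 and 52.4% lay above it in cultures 1, 2 and 3. In culture 1 97.6% and in culture 3 98.6% of the genes called higher by the other libraries were above the maltose mean, and none lay more than 2-fold below it. In culture 2 86.2% were above and 14 genes lay more than 2-fold below. The share was thus lowest in culture 2, a description of 1 library with no test, and the sets of genes differ between the cultures. The middle 50% of the genes spanned log2 ratios of 0.56 to 2.51 in culture 2, 0.87 to 2.32 in culture 1 and 1.02 to 2.64 in culture 3.

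Of the genes called lower without the culture, culture 1 had a median of -1.43 over 266 genes and culture 3 of -1.31 over 282. Culture 2 had -0.83 over 503 genes, in which cultures 1 and 3 were at -1.49 and -1.32, and 13 of those genes lay more than 2-fold above the maltose mean. The share of genes more than 2-fold below the maltose mean was 72.6% in culture 1, 68.4% in culture 3 and 43.7% in culture 2. Over all genes tested that share was 8.92% in culture 1, 5.71% in culture 3 and 7.72% in culture 2. Cultures 1 and 3 were the nearest pair, with a root mean square difference in log2 CPM of 0.58, against 1.03 and 0.87 to culture 2. Genes chosen by that pair can hold deviations that it shares, and the sets differ, so these values do not rank the cultures. Over the 327 genes called lower with all cultures the medians were -1.58, -1.47 and -1.46 in cultures 1, 2 and 3.

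**Figure D4:**
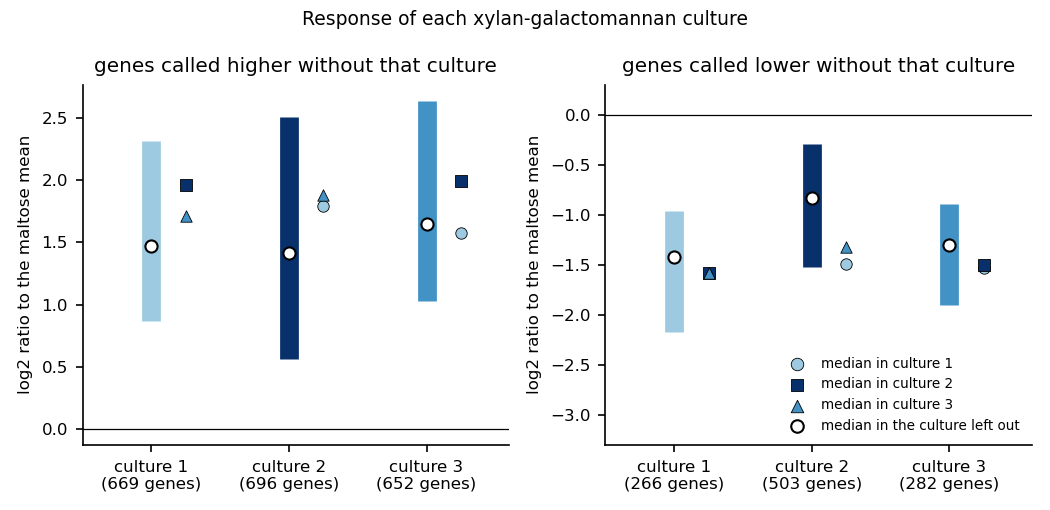
Log2 ratio to the maltose mean (vertical axis) in each xylan-galactomannan culture for genes called higher (left) or lower (right) in a fit without that culture. Bars span the middle 50% of the genes, white circles are the median of the culture left out and the symbols beside them the medians of the other cultures in the same genes, and the white circle of culture 2 lies nearest to 0 on the right, at -0.83 against -1.43 and -1.31.

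The size of the grade from culture 1 to culture 2 in strongly raised genes depended on whether culture 2 had been used to choose them. Among genes over 8-fold higher in a fit without culture 1, culture 1 had a median log2 ratio of 2.89 against 4.42 in culture 2 and 3.59 in culture 3 (150 genes). In the fit without culture 2 such genes had a median of 3.95 in culture 2, close to the 3.86 and 4.23 of cultures 1 and 3 that had chosen them (117 genes). In the fit without culture 3 the median was 3.59 in culture 3, 3.07 in culture 1 and 4.56 in culture 2 (140 genes). Culture 1 had the lowest median in each of these sets, but lay close to culture 2 in the set chosen without culture 2.

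The order culture 1, culture 3, culture 2 was found in 24.9% of all genes tested, in 34.9% of the genes called higher and in 52.1% of those called more than 8-fold higher. The called genes were chosen and sized with all 3 cultures. A high level in culture 2 itself helped to bring genes into these sets, so the larger shares do not compare the cultures. This order held for 7 of 7 hemicellulose-active, 4 of 5 pectin-active, 2 of 2 GH3 and 5 of 9 transporter genes, and for 1 of 4 sugar and polyol oxidoreductases and 1 of 5 proteases. Culture 2 was the highest in 64 of the 98 annotated genes, and culture 1 the lowest in 49. Culture 1 was the lowest in 33.4% of all genes tested and in 45.3% of those called higher. Culture 2 was also the highest of the cultures in 41.6% of all genes tested and the lowest in 41.5%, since it was the most distant of the cultures, so its rank counts only beside those shares.

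The raised genes were less even between the cultures than other genes. The median range between the highest and the lowest culture was 1.03 log2 units over the genes called higher, 0.72 over those called lower and 0.63 over all genes tested. Between the maltose libraries it was 0.73, 0.79 and 0.53 over the same sets, so the called genes were also less even on maltose. A range of more than 4-fold was seen in 20.3% of the genes called higher and in 7.94% of all genes. Of the 140 genes called higher with such a range, 88 had culture 2 and 21 culture 1 at the top, and 47 had culture 2 at the bottom. Over all genes tested, 931 had such a range, with culture 2 at the top in 436 and at the bottom in 413. The genes called higher were chosen with culture 2 included, so these counts do not compare how the cultures responded. For comparison, the median range within a group was 0.53 on maltose, 0.49 on Avicel, 0.40 on aspen and 0.27 on wheat straw, so xylan-galactomannan was the least even group of the series.

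The deviations of culture 2 had a likeness in the maltose group. Across the genes tested, the deviation of culture 2 from its group mean had a correlation of 0.42 with that of maltose 1, and the deviation of culture 1 one of 0.31 with that of maltose 3. These are correlations over genes, which are not independent replicates, and what the libraries share was not tested. With both maltose 1 and culture 2 left out, 645 genes were called higher and 403 lower, with 6 of 7 hemicellulose-active and 5 of 5 pectin-active genes among those higher.

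Set directly against wheat straw, a whole grass biomass at the same maltose concentration, 1390 genes were higher on xylan-galactomannan and 1125 lower, 11.9% and 9.6% of the genes tested. Against Avicel 1067 were higher and 531 lower, 9.1% and 4.53%. All 6 cellulose-active genes were lower on the hemicelluloses than on either substrate, with folds from 7.29 to 70.2 below wheat straw and from 196 to 822 below Avicel. They all belong to the same cluster of the study, whose genes were highest on Avicel, as do the GH5_7 gene and GH28 gene 1738933. Their lower level here is therefore not independent evidence. Over the annotation, 6 of 98 genes were higher and 51 lower than on wheat straw, and 31 were higher and 17 lower than on Avicel. Of the cellulose-active genes, the GH7 gene 1675671 was at 38.6 ± 11.8 CPM on xylan-galactomannan and 31691 ± 25537 CPM on Avicel (SD, n = 3), and fell by 9.68 on the log2 scale (edgeR adjusted p = 1.99e-05).

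The hemicellulose-active genes were split in these comparisons. Against wheat straw 1 of 7 was higher and 3 were lower, and against Avicel 3 were higher and 1 was lower. The study chose some of the annotated genes for high levels on wheat straw or aspen and not on maltose or Avicel. It used the same libraries, so the direction of these genes against wheat straw and Avicel is not independent evidence. The same limit holds for the counts over the annotation above and for the other annotated genes below. The CE16 gene 1592100 was higher than on both, at 179 ± 54.4 CPM against 70.2 ± 5.88 CPM on wheat straw and 52.2 ± 23.8 CPM on Avicel (SD, n = 3, log2 fold changes 1.35 and 1.77, edgeR adjusted p = 0.0379 and 0.0167). The GH5_7 mannanase 1672345 was lower than on both, at 172 ± 84.3 CPM against 467 ± 64.2 CPM and 1679 ± 993 CPM (log2 fold changes -1.44 and -3.28, edgeR adjusted p = 0.0177 and 0.000293). The CE15 gene 1679979, with the steepest rise over maltose, did not pass against either, at 206 ± 170 CPM against 76.9 ± 30.7 CPM on wheat straw and 70.0 ± 66.1 CPM on Avicel, with log2 differences of 1.43 ± 0.66 and 1.56 ± 0.67 (SE, edgeR adjusted p = 0.101 and 0.0988). The GH2 mannosidase 1664834 was higher than on Avicel, at 415 ± 279 CPM against 67.8 ± 13.5 CPM (log2 fold change 2.61, edgeR adjusted p = 0.000645), and not called against wheat straw (290 ± 22.9 CPM, adjusted p = 0.305).

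Both aldo-keto reductases were higher on xylan-galactomannan than on wheat straw and on Avicel. Gene 1578979 was at 1013 ± 627 CPM against 253 ± 33.7 and 62.0 ± 34.5 CPM (SD, n = 3, log2 fold changes 2.003 and 4.03, edgeR adjusted p = 0.00513 and 0.000154). Gene 1610012 was at 287 ± 47.0 CPM against 60.4 ± 41.6 and 61.7 ± 5.40 CPM (log2 fold changes 2.25 and 2.22, edgeR adjusted p = 0.000492 and 0.000861). Of the pectin-active genes the GH28 gene 1577230 was higher than on both, at 436 ± 285 CPM against 208 ± 20.4 and 18.9 ± 3.39 CPM (log2 fold changes 1.07 and 4.53, edgeR adjusted p = 0.0356 and 1.19e-05). The other GH28 gene, 1738933, was lower than on both, at 156 ± 70.3 CPM against 397 ± 128 and 2871 ± 1400 CPM (log2 fold changes -1.35 and -4.20, edgeR adjusted p = 0.0235 and 5.6e-05). None of the 4 KOG0254 transporters named above was called against wheat straw, while all 4 were higher than on Avicel by 2.84 to 3.75 log2 units.

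**Figure D5:**
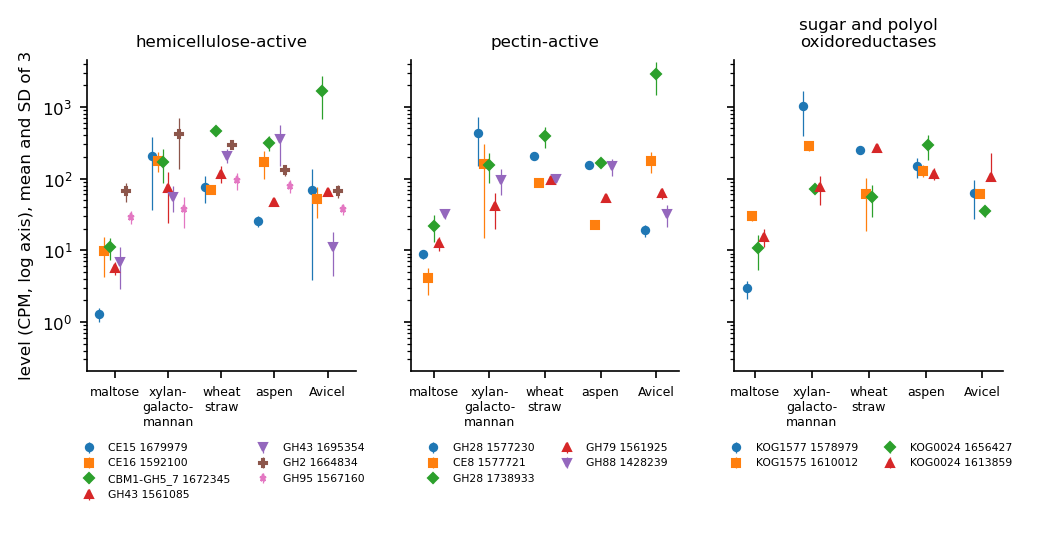
Mean level in CPM (vertical log axis) of the hemicellulose-active, pectin-active and sugar and polyol oxidoreductase genes on each carbon source, with the SD over 3 libraries as error bars and no lower bar where the SD exceeds the mean. The aldo-keto reductase KOG1577 1578979 stands at 1013 CPM on xylan-galactomannan against 253 CPM on wheat straw and 2.95 CPM on maltose, and the GH5_7 gene and GH28 1738933 are highest on Avicel.

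In all, 474 genes (4.04% of those tested) lay higher in each of the 3 cultures than in every one of the 12 libraries of the other carbon sources, aspen included, and 371 (3.16%) lay lower. Among the annotated genes these were 2 and 3. The 2 above were the aldo-keto reductases 1578979 and 1610012, with lowest culture levels of 413 and 248 CPM against at most 278 and 147 CPM elsewhere. The 3 below were the GH74 gene 1721886, the GH47 gene 1609201 and a predicted lipase (284504, KOG4569), which was at 11, 12.8 and 13.8 CPM in cultures 1, 2 and 3 and at 24.5 CPM or more in all other libraries. Only 11 genes (0.0938%) had a lowest culture level over 4 times the highest of the other libraries, and 1629542 and 1612544 were among them.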

How the data were processed

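The deposited count table held raw counts per gene model. The authors filtered and trimmed 150 bp paired reads, used TopHat2 for alignment against the genome of the strain and HTSeq for counting. The sources used here give no version of either tool and no strand setting. The deposited length column (other) gives each model's length in bases. The deposited normalised table, which the labels ascribe to DESeq 1.5, was not used.

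The test was run in R 4.3.3 with edgeR 4.0.16 (filterByExpr, TMM, a mean per group, robust quasi-likelihood fit of all 15 libraries, common biological coefficient of variation 0.281). Log2 ratios of single cultures used log2 CPM with a prior count of 2.

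The comparison, gene lists and alternatives were chosen with earlier results of these data known. Lists group the study's annotated genes by enzyme family or KOG (a cluster of orthologous groups). Named were all members of the hemicellulose-active, pectin-active, cellulose-active, GH3 and oxidoreductase lists and the laccase, up to 4 called rises and 2 falls of other lists, the 3 widest and 3 narrowest ranges between cultures, and 2 rises and 2 falls without annotation. The alternatives were other scalings, DESeq2 1.42.0, no filter, only the libraries compared, a replicate block, removal of the length trend, halved counts, and each maltose or xylan-galactomannan library left out.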

Additional observations from a re-analysis of the deposited data

How the results depend on the processing

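The groups shared one estimate of the spread, and with only the 6 libraries of a comparison edgeR called 302 genes higher and 142 lower than on maltose, and 933 between xylan-galactomannan and Avicel in place of 1598. Without 1 maltose or xylan-galactomannan library the genes higher ranged from 467 (without maltose 2) to 805 and the genes lower from 244 to 507 (without culture 2). Culture 2 also moved the share of higher calls, from 67.8% to 57.9%. DESeq2 called 797 higher and 400 lower, of which 993 were among the 1015 called by edgeR.

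Replicate numbers were shared by the maltose and xylan-galactomannan groups, but libraries of the same number did not deviate together (correlations over genes of -0.37, -0.01 and 0.19). With the replicate block edgeR called 627 genes higher and 301 lower.

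With genes chosen by adjusted p alone, the held-out medians of cultures 1, 2 and 3 were 1.09, 0.73 and 1.17 for raised genes and -0.97, -0.47 and -0.82 for lowered genes. Without 1 maltose library the medians of the raised genes ranged from 1.51 to 1.65 in culture 1, from 1.12 to 1.58 in culture 2 and from 1.73 to 1.92 in culture 3. Without maltose 1 culture 2 (1.58) lay above culture 1 (1.51), so the order of those cultures in the raised genes is not settled. Under library size alone culture 2 (1.49) also lay above culture 1 (1.43). In the lowered genes culture 2 was nearest to 0 under each of these alternatives. Each culture was measured over its own set of genes, so this does not rank the cultures either.

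Of the named genes, 3 that were not called changed sign. GH7 1675671 went to -0.036 with library size alone and ranged from -0.21 to 0.53 over the libraries left out. AA8-AA3_1 1672751 went to 0.041 with the length trend removed and ranged from -0.32 to 0.13. GH95 1567160 ranged from -0.10 (without culture 2) to 0.63 and went to -0.13 without maltose 1 and culture 2, an alternative chosen after seeing the data, as were the list counts without culture 2 and the values of 1583293 without each library. The causes were not tested. With 3 libraries a group, single cultures can be described but not compared by a test.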
